A study of Homo sapiens with 12 samples.

Results

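Chromosome 19 zinc finger genes were followed across the 12 RNA-seq libraries of a study of the histone methyltransferase DOT1L in oncogene-induced senescence. The genes were chosen as the protein-coding genes of GRCh38 chromosome 19 whose symbol is ZNF followed by a number and which had at least 10 counts in at least 3 of the 12 libraries. This rule gave 218 members out of 249 annotated chromosome 19 ZNF genes, and out of 48162 gene IDs in the files, 14539 of which passed the same count rule. A further 29 chromosome 19 ZNF genes stayed under the rule, 15 of them sharing exonic sequence with another gene on the same strand, and the remaining 2, ZNF229 and ZNF8, were not analysed here. Of the 218 members, 175 had at least 10 counts in every library, and none passed through the libraries of 1 group only.

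All libraries came from IMR90 cells, a normal diploid line of human lung fibroblasts kept at 2% oxygen, and 3 libraries were made for each of 4 groups. The Control group carried the empty retroviral vector (pBABE-Control). The RAS group carried the oncogene HRASG12V in the same vector (pBABE-HRASG12V), which drives these fibroblasts into senescence, and the RAS/shDOT1L group carried pBABE-HRASG12V together with 1 short hairpin against DOT1L (pLKO.1-shDOT1L). Puromycin at 3 µg/mL selected these 3 groups over 4 days. The DOT1L OE group received the human DOT1L vector MSCB-hDot1lwt without HRASG12V and blasticidin at 1 µg/mL over the same 4 days. DOT1L OE differs from Control in vector and selection drug as well, so the effects of vector and drug cannot be told apart from that of DOT1L, and whether these RAS libraries carried a control hairpin is not given in the sources used here. The triplicates are described in the study both as technical and as biological, so the spread behind the p-values is that among these libraries and may be technical only.

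C2H2 zinc finger proteins bind DNA through arrays of short fingers, each folded around a zinc ion and joined to the next by a conserved linker. Many of those encoded on chromosome 19 also carry a KRAB domain, which recruits TRIM28 (also called KAP1) and with it the H3K9 methyltransferase SETDB1 and HP1 proteins, and so silences the bound DNA. The family grew by tandem duplication into clusters, and many members bind transposable elements. DOT1L methylates H3K79 on transcribed genes.

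Library totals lay between 16128055 and 19503457 counts. Levels are given as CPM, counts per 1000000 counts of a library after scaling with TMM factors over all 12 libraries. Mean DOT1L levels were 202 CPM in DOT1L OE, 84.5 with RAS, 31.7 in Control and 11 in RAS/shDOT1L, and mean HRAS levels 503 CPM with RAS, 275 in RAS/shDOT1L, 85.9 in Control and 79.4 in DOT1L OE, so both followed the labels. HRAS was therefore also lower in RAS/shDOT1L than in RAS (log2 change -0.85, edgeR adjusted p = 3.87e-16), and its part in the differences between these groups was not tested. All 10 fibroblast markers examined were measured, with 24610 to 25010 summed CPM in Control and 17180 to 19100 in the other groups, while 11 measured markers of epithelial, endothelial, blood and muscle cells summed to 3.39 to 9.55 CPM and the alveolar marker SFTPC was at 0. Summed over 10 proliferation genes, the level was 1462 to 1527 CPM in DOT1L OE, 353 to 358 in Control, 174 to 188 in RAS and 132 to 137 in RAS/shDOT1L. Its part in the results below was not tested.

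A single finger shows how differently these related proteins are encoded. The first finger with a full linker was read from the reference sequence of the 2 members of lowest and the 2 of highest transcript GC content, since GC content runs through the results that follow. Each stretch is 78 bases of coding sequence, 5′ to 3′ on the gene's strand, with the 15 bases of the linker in capitals.
ZNF254: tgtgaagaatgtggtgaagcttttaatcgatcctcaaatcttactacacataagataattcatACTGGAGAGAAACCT
ZNF681: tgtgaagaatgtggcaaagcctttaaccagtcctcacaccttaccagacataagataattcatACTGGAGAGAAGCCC
ZNF628: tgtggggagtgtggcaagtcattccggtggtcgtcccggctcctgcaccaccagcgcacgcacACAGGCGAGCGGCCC
ZNF865: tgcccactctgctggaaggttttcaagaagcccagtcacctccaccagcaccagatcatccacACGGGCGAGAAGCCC
The first comes from chr19:24126802-24126879 on the plus strand (exon 4 of 4), the second from chr19:23744455-23744532 on the minus strand (exon 4 of 4), the third from chr19:55481305-55481382 on the plus strand (exon 3 of 3) and the last from chr19:55614672-55614749 on the plus strand (exon 2 of 2), all in GRCh38. ZNF254 and ZNF681, which lie in the same cluster, share 84.6% of these bases, whereas ZNF254 shares 48.7% with ZNF628 and 50% with ZNF865. ZNF681 shares 55.1% with ZNF628 and 59.0% with ZNF865, and ZNF628 shares 56.4% with ZNF865. GC content was 34.6% in the ZNF254 finger, 43.6% in that of ZNF681, 69.2% in that of ZNF628 and 59.0% in that of ZNF865. Over the 206 members that hold a finger of this form (1413 stretches), the third codon base varied most, from 20.7% to 97.4% GC with a median of 35.8%, while the first and second bases together stayed between 41.9% and 61.5%.

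The start sites of the members also differ by cluster. Members were grouped into 16 clusters wherever neighbouring members lay less than 1 Mb apart. RefSeq promoter windows of GRCh38.p14, from 250 bases before to 50 bases after the start, were found for 195 members (242 windows), and 3 letter strings were looked for on both strands. CCAATCAG, which holds a CCAAT box, was present in 19% of the members' windows against 3.97% of all 35116 windows, and in 23 of the 24 windows (23 of 23 genes) of the neighbouring clusters 5 and 6. Cluster 3 held it in 16 of 21 windows, and clusters 2, 8, 9 and 16 in none. CCGGAAG, which holds the core of ETS family sites, was in 41.3% of the members' windows against 10.3% of all, and GGGCGGG, the letters of a GC box, in 46.3% against 33.1%. Windows of ZNF genes on other chromosomes held CCAATCAG in 9.41%, CCGGAAG in 27.1% and GGGCGGG in 37.6%. Other chromosome 19 windows held them in 5.47%, 13.0% and 47.1%, so GGGCGGG was no more frequent in the members than there. The 150 bases just upstream of 3 members of clusters 5 and 6 and of 1 member of cluster 3, each called in at least 1 comparison, are given 5′ to 3′ on the gene's strand with CCAATCAG in capitals.
ZNF91: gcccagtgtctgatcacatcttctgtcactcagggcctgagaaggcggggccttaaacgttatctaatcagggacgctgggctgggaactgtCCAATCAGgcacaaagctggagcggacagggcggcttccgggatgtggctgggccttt
ZNF681: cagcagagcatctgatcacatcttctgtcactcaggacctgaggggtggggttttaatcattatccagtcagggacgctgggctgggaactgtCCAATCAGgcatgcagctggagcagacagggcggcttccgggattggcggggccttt
ZNF429: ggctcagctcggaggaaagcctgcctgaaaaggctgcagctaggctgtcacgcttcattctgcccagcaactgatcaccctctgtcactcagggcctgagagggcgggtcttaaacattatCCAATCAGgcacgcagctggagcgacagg
ZNF441: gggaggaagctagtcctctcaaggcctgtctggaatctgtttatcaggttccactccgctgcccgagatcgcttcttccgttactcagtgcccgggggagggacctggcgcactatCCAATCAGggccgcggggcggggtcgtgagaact
They lie at chr19:23395472-23395621 (minus strand), chr19:23758892-23759041 (minus strand), chr19:21505452-21505601 (plus strand) and chr19:11766850-11766999 (plus strand) of GRCh38. Finding these letters is a description of the windows and shows no binding.

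Most members were expressed at a low level. Averaged over the 12 libraries, the median member stood at 3.72 CPM (0.303 to 56.9), 39 members reached 10 CPM, and ZNF genes on other chromosomes had a median of 7.13 CPM. Per length, in RPKM (CPM divided by the transcript length in kilobases), the members ran from 0.0482 to 47.7 with a median of 0.912. The 5 highest per length were ZNF580 (47.7 RPKM), ZNF787 (29.3), ZNF444 (25.7), ZNF581 (23.1) and ZNF579 (18.8), all in cluster 16 at the end of the long arm and all between 61.8% and 70.4% GC. ZNF580 and ZNF581 overlap on the same strand, so their counts may be shared. ZNF444 is one of the members with a SCAN domain, which pairs such proteins with each other.

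The members' transcripts were lower in GC content than most of their chromosome. Median transcript GC content was 42.4% (33.2% to 70.9%), with 41.9% in the coding part and 39.5% in the 3′ UTR, against 61.0% for the 710 other protein-coding chromosome 19 genes and 45.2% for the 226 ZNF genes of other chromosomes that passed the count rule. Transcripts had a median length of 3988.5 bases and encoded a median of 12 C2H2 fingers (1 to 31). A KRAB-type stretch, Glu-Glu-Trp followed within 30 residues by Asp-Val-Met or Asn-Val-Met, was encoded by 120 members. It is a match of letters and no domain call, so members without it may still encode a KRAB domain. The exons of 76 members overlapped another annotated gene on the same strand and those of 75 an antisense gene. In 15 members over 10% of 50-base stretches also occurred in another chromosome 19 ZNF gene, and since the strand setting of the counting is not given, levels of overlapping members are uncertain.

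Across libraries the members stood highest in Control. Taking for each member the log2 CPM minus its mean over the 12 libraries, the median over the 218 members was 0.179 to 0.225 in the Control libraries, 0.110 to 0.129 in DOT1L OE, -0.174 to -0.0949 in RAS and -0.154 to -0.127 in RAS/shDOT1L. All 6 libraries with HRASG12V were thus below all 6 without it. Summed CPM gave a different order, because the few members of high level count most in a sum, with 1532 to 1565 in RAS, 1503 to 1528 in Control, 1482 to 1503 in DOT1L OE and 1272 to 1331 in RAS/shDOT1L. In bulk samples fewer cells of a type and less RNA per cell cannot be told apart.

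**Figure D1:**
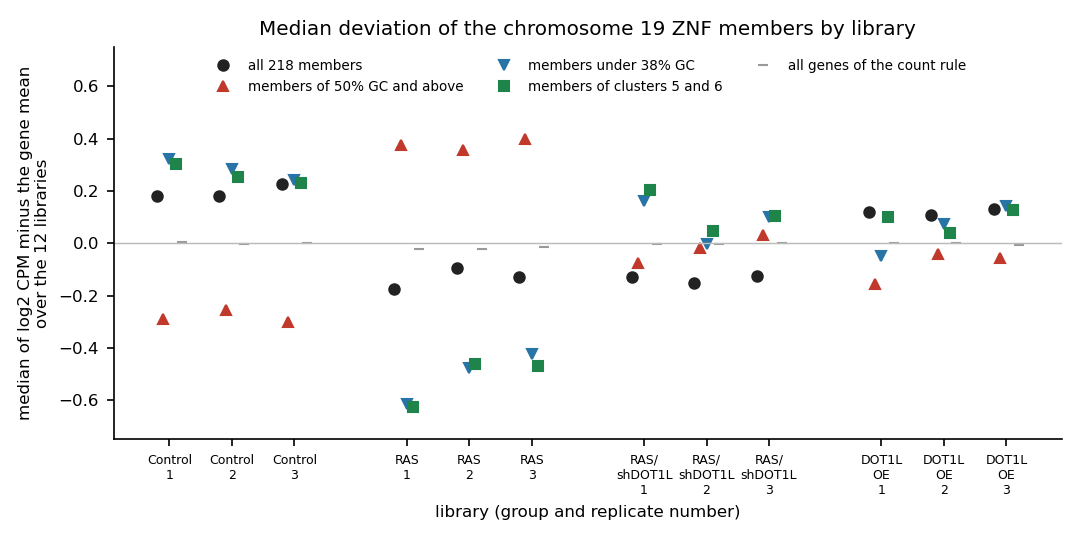
Median over members of log2 CPM minus the gene's mean over 12 libraries (vertical axis) in each library (horizontal axis), for all 218 members, for those of transcript GC content of 50% and above or under 38%, and for clusters 5 and 6, with grey dashes for all genes of the count rule. In the RAS libraries the members under 38% GC lie at -0.615 to -0.425 and those of 50% and above at 0.355 to 0.396, opposite to the Control libraries.

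RAS against Control asks how the genes differ with the oncogene. Of 212 members tested, 72 were lower and 27 higher in RAS (edgeR's quasi-likelihood test, Benjamini-Hochberg adjusted p under 0.05), where 32.0% of all 13554 genes tested were lower and 31.9% higher. The lower members thus made up a share close to the background (34%), and the higher ones a smaller share (12.7%). The median log2 change of the members was -0.53, with 158 of 212 below zero, against -0.04 over all genes tested. With library sizes alone and no TMM factors the median of all genes moved to -0.24 and that of the members to -0.73, with 97 members lower and 19 higher. ZNF genes of other chromosomes had 68 lower and 50 higher of 218 (median -0.24), and the other chromosome 19 genes 55 lower and 456 higher of 685 (median 0.53). Changes of over 1.5-fold (edgeR's glmTreat) were called for 44 members, 20.8% of those tested, against 26.9% of all genes.

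**Figure D2:**
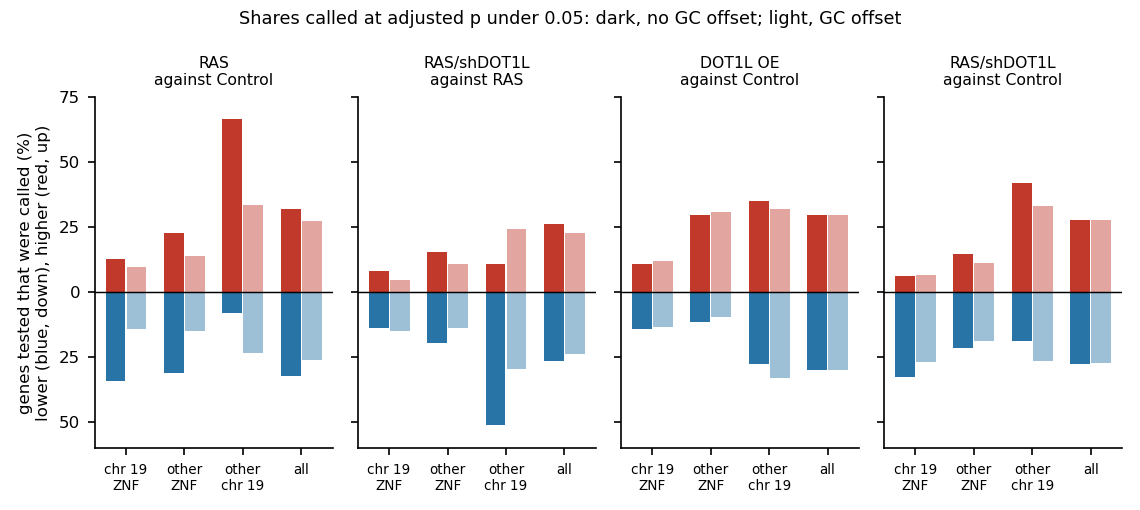
Percent of tested genes called higher (up, red) or lower (down, blue) at edgeR adjusted p under 0.05 in each comparison, for the chromosome 19 ZNF members, other ZNF genes, other chromosome 19 genes and all genes tested. Dark bars are without and light bars with the GC offset, under which the members lower in RAS drop from 34% to 14.2% and the other chromosome 19 genes higher in RAS from 66.6% to 33.6%.

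Transcript GC content ordered these changes, among the members and among the other genes alike. Of the 29 members under 38% GC, 16 were lower in RAS and 0 higher, with a median log2 change of -1.03 over the 28 tested. Between 38% and 42%, 36 of 69 tested were lower and 0 higher (median -0.84), and between 42% and 50%, 20 of 85 were lower and 3 higher (median -0.32). At 50% and above the direction turned, with 24 of 30 higher, 0 lower and a median of 0.77. The Spearman correlation between transcript GC content and log2 change was 0.66 over the 212 members, which share libraries and, in part, sequence. Genes that are no members followed the same slope. In the lowest of 10 GC bins over all genes (27.8% to 38.4% GC) their median was -0.63 where that of 33 members was -0.99, and in the highest (61.9% to 76.0%) it was 0.59 where that of 17 members was 0.86. The shares called did not exceed those of the other genes at low GC content, with 17 of the 33 members lower in the lowest bin against 66.1% of the others. In the highest bin 14 of the 17 members were higher, against 63.0% of the others.

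Because the slope ran through all genes, each comparison was fitted again with a GC offset, the median deviation of each library in 20 bins of transcript GC content over all genes. The offset removes the difference that runs with GC content over all genes, whatever its source. A change in the cells that follows this slope is removed as well. With the offset 30 members were lower and 21 higher in RAS, where 26.0% of all genes were lower and 27.3% higher. The members' median moved to -0.22. Of the 99 calls without the offset 43 stayed in the same direction (27 lower, 16 higher), 55 were lost and 1, ZNF580, turned, and 7 other members were called only with it. Among the members under 38% GC 6 were lower (median -0.44), where 24.4% of the other genes in the lowest GC bin were. Among those of 50% and above 13 were higher and 3 lower (median 0.29). Over the 212 members the Spearman correlation between GC content and log2 change was still 0.38 with the offset. Whether the slope with GC content arose in the cells or in library preparation was not tested.

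**Figure D3:**
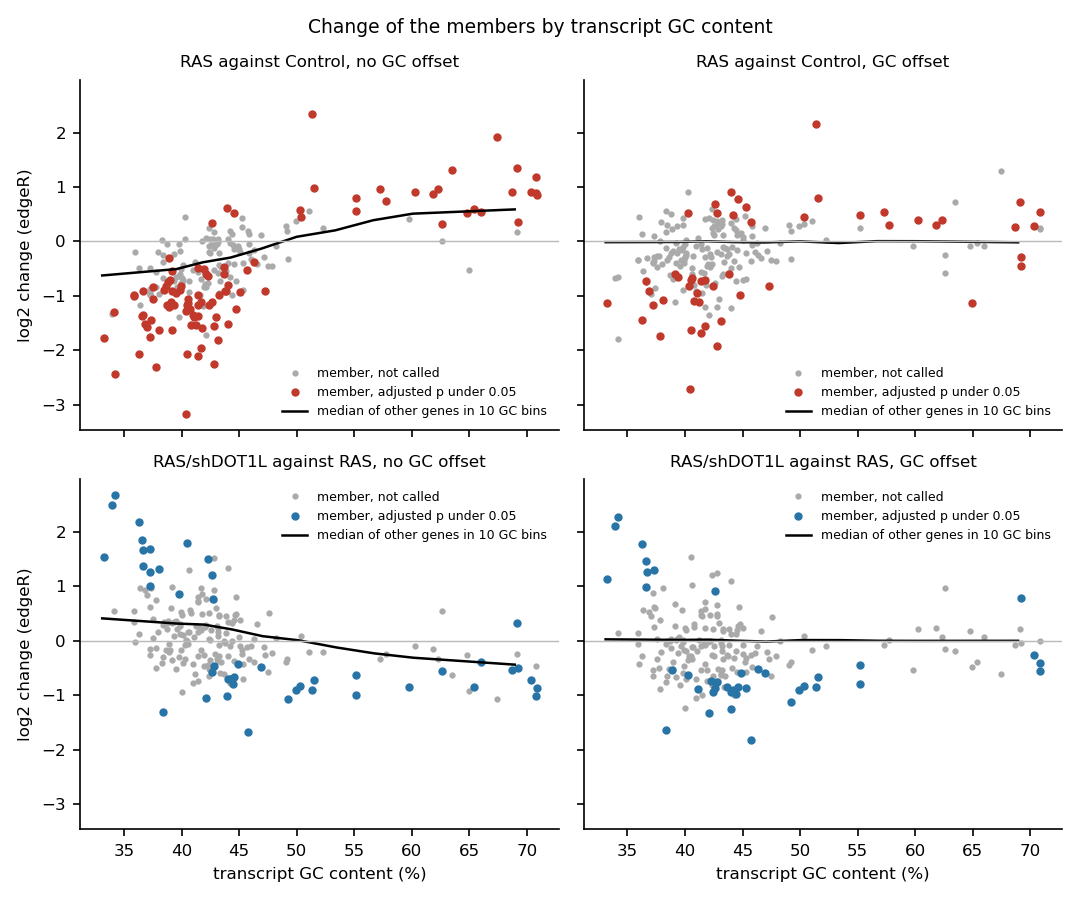
Log2 change (vertical axis) of each member tested against its transcript GC content in percent (horizontal axis), in RAS against Control (top) and RAS/shDOT1L against RAS (bottom), without (left) and with the GC offset (right). Coloured points are called at edgeR adjusted p under 0.05 and the black line is the median of genes that are no members in 10 GC bins, which rises with GC content at top left, falls at bottom left and lies near 0 with the offset.

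Among the members of at least 3 CPM in the higher group whose RAS and Control libraries did not overlap, ZNF441 of cluster 3 fell most. It was measured at 3.72, 6.41 and 5.83 CPM in Control and at 0.894, 0.848 and 1.47 CPM in RAS. Every RAS library lay below every Control library, at 4.97-fold lower (log2 change -2.31 ± 0.37 SE, edgeR adjusted p = 2.18e-06). Here and below the SE of a log2 change was taken as its size divided by the square root of edgeR's F statistic. The fall was -1.74 with the GC offset and its call was kept (edgeR adjusted p = 0.000182). ZNF600, at chr19:52749942-52786807 in cluster 15, followed with 6.29, 10.2 and 6.94 CPM in Control and 2.74, 0.727 and 1.40 in RAS (log2 change -2.26). Of the 50-base stretches of ZNF600, 15.3% occur in another chromosome 19 ZNF gene, so its reads are less certainly its own. ZNF766 of the same cluster (log2 change -2.11) and ZNF700 of cluster 3 (-1.96) also stayed lower with the offset (-1.68 and -1.56).

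The other large falls named by this rule were those of ZNF675, ZNF254 and ZNF431 of clusters 5 and 6 and ZNF780B of cluster 10. ZNF675, known as an inhibitor of TRAF6 signalling, stood at 3.46, 5.23 and 4.57 CPM in Control and 0.536, 1.09 and 1.53 CPM in RAS. ZNF254, the member with the lowest GC content, stood at 5.42, 5.39 and 7.49 CPM in Control and 1.55, 2.18 and 1.60 in RAS. Neither gene's groups overlapped. Their log2 changes were -2.07 ± 0.41 and -1.78 ± 0.31 (edgeR adjusted p = 4.34e-05 and 7.97e-06), and -1.44 and -1.13 with the GC offset. ZNF431 (log2 change -1.76) and ZNF780B (-1.63) also kept their calls with the offset, at -1.17 and -1.07.

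Of the members that rose with RAS and met the same rule of level and overlap, ZNF792 stood apart in size. Its level was 3.04, 4.04 and 4.57 CPM in Control and 18.4, 20.1 and 20.8 CPM in RAS, 5.06-fold higher (log2 change 2.34 ± 0.18, edgeR adjusted p = 6.33e-13). With 51.4% GC it moved little under the offset (2.15). ZNF792, at chr19:34956354-34964229 on the minus strand in cluster 8, encodes 12 fingers and a KRAB-type stretch and overlaps no other annotated gene. It stood at 7.95, 14.4 and 8.89 CPM in RAS/shDOT1L, below all RAS libraries and above all Control libraries.

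The other 7 largest rises by this rule belonged to members of 51.5% to 70.8% GC, none with a KRAB-type stretch. ZNF524, of 69.1% GC and 4 fingers, went from 9.13, 13.7 and 12.9 CPM in Control to 27.6, 31.6 and 32.0 in RAS (log2 change 1.35, edgeR adjusted p = 6.43e-10). ZNF628 went from 11.7, 15.2 and 12.7 CPM to 29.4, 34.5 and 25.9 (log2 change 1.18, edgeR adjusted p = 5.52e-09). The offset left 0.72 of the ZNF524 change and 0.55 of that of ZNF628, both still called, as were ZNF576 (0.98 without, 0.79 with the offset), ZNF324 (0.97 and 0.55), ZNF574 (0.96 and 0.39) and ZNF787 (0.91 and 0.28). ZNF446, another SCAN member, rose by 1.30 and lost its call with the offset (0.72, edgeR adjusted p = 0.0533).

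Several well-expressed members show what the offset does at both ends of the GC scale. ZNF865, of 70.9% GC, was measured at 27.1, 32.1 and 24.8 CPM in Control and 53.8, 46.4 and 52.1 in RAS, without overlap (log2 change 0.86, edgeR adjusted p = 9.94e-09), and was no longer called with the offset (0.23, edgeR adjusted p = 0.0616). ZNF260, of 35.9% GC and built almost only of fingers, fell from 11.8, 10.6 and 12.3 CPM to 6.02, 6.36 and 5.11 (log2 change -0.99) and was not called with the offset (-0.34). For ZNF579 (0.54 to -0.09), ZNF784 (0.52 to -0.09), ZNF414 (0.33 to -0.25) and ZNF146 (-0.31 to 0.22) the sign itself turned with the offset, without a call, and ZNF580 was called higher without it (0.35) and lower with it (-0.28). The direction of these 5 members therefore depends on how the GC slope is treated. ZNF71 lost its call and kept its sign (0.55 to 0.24).

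RAS/shDOT1L against RAS asks how the genes differ when DOT1L is depleted under the oncogene. Of 204 members tested, 17 were higher and 28 lower, 8.33% and 13.7%, where 26.3% of all 13398 genes were higher and 26.4% lower. The median log2 change was -0.01 (0.06 with library sizes alone), with 103 of 204 below zero, and 14 members changed by over 1.5-fold, 6.86% against 17.0% of all genes. Without RAS replicate 2 the higher members numbered 11, and without RAS replicate 1 those past 1.5-fold numbered 8. This comparison uses the same RAS libraries as RAS against Control, so values of a member in both are given side by side and not as separate evidence. GC content again ordered the changes, now in the other direction. Of the 28 members tested under 38% GC, 10 were higher and 0 lower (median 0.80), and of the 30 at 50% and above 1 was higher and 14 lower (median -0.51), with a Spearman correlation of -0.51 over the 204 members. Among the genes that are no members 44% were higher and 8.22% lower in the lowest GC bin, and 7.81% higher and 53.2% lower in the highest. With the GC offset 10 members were higher and 30 lower, where 22.8% of all genes were higher and 23.8% lower, the median was -0.17 and the Spearman correlation was -0.22.

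The higher members lay mainly together. Of the 17, 10 came from clusters 5 and 6, on the short arm next to the centromere, between 19.67 and 24.13 Mb. These 2 neighbouring clusters were joined after their values had been seen, and hold 26 members with a median GC content of 37.0%, 17 of them with a KRAB-type stretch. Of 23 tested, 10 were higher, 0 were lower and 20 were above zero, with a median log2 change of 0.93. The share called higher was close to that of other genes of low GC content, 44% in the lowest GC bin (27.8% to 38.4%), whose median was 0.41. With the GC offset 8 were higher, 0 were lower and the median was 0.56, against 19.2% higher and a median of 0.03 among those other genes, and the 10 members called higher on the whole chromosome include these 8. Outside these clusters 7 of 181 members were higher and 28 lower (median -0.10). In RAS against Control the same clusters had 12 lower and 0 higher of 24 (median -1.09), and 6 lower with the offset (median -0.47), where 66.1% of the other genes in the lowest GC bin were lower without and 24.4% with the offset.

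**Figure D4:**
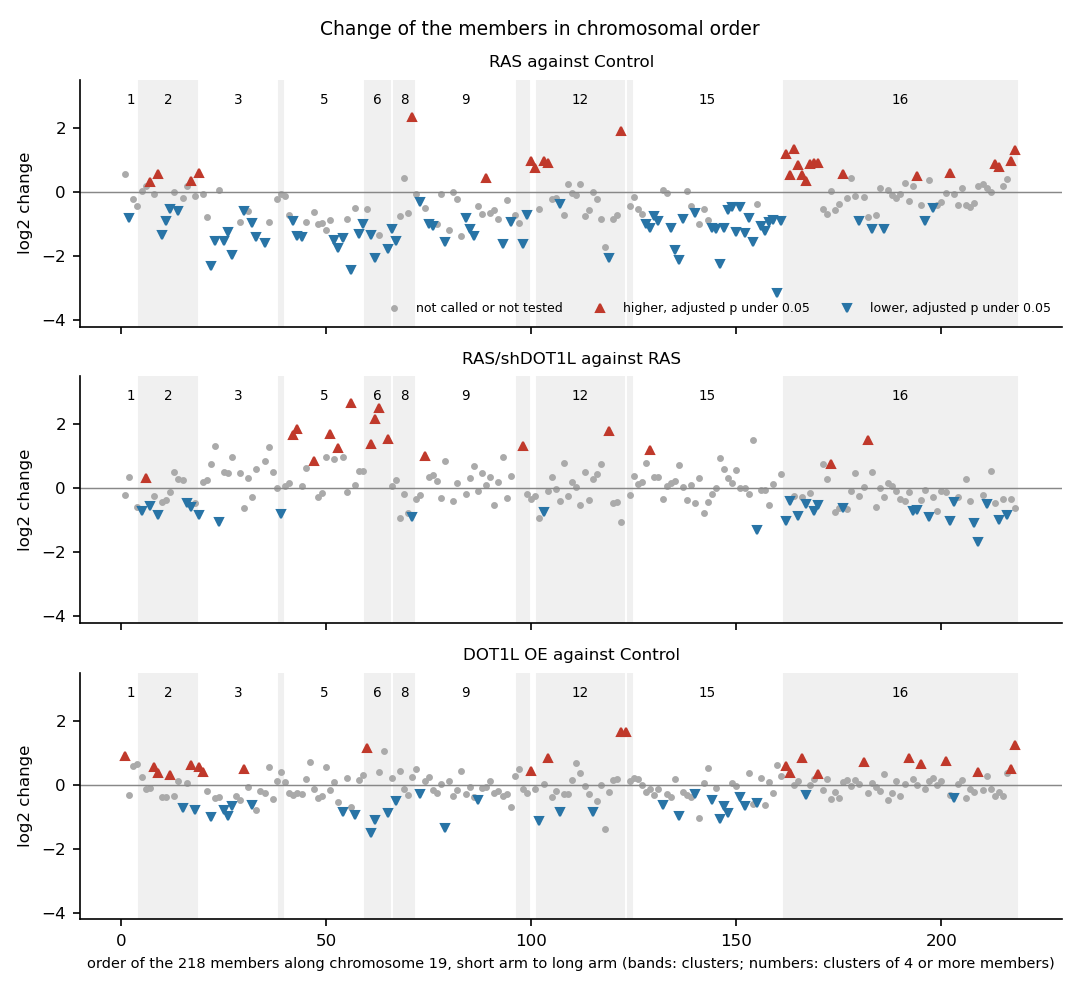
Log2 change (vertical axis) of the members in their order along chromosome 19 (horizontal axis), in 3 comparisons, with alternating bands for the clusters. Red triangles are higher and blue triangles lower at edgeR adjusted p under 0.05, and in RAS/shDOT1L against RAS 10 of the 17 red triangles lie in clusters 5 and 6.

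By library, the median deviation of the members of clusters 5 and 6 was -0.627 to -0.463 in RAS, 0.0383 to 0.128 in DOT1L OE, 0.0453 to 0.204 in RAS/shDOT1L and 0.230 to 0.302 in Control. The 3 RAS libraries were lowest and did not overlap any other group, while RAS/shDOT1L and DOT1L OE overlapped. Genes under 38% GC that are no members had the same order with smaller deviations in RAS, at -0.299 to -0.288 in RAS, -0.00667 to 0.0713 in DOT1L OE, 0.0187 to 0.0647 in RAS/shDOT1L and 0.235 to 0.273 in Control. Between RAS/shDOT1L and Control 2 of 25 members were higher and 3 lower (median -0.33). Of all genes tested there 27.9% were higher and 27.6% lower. Among the other genes in the lowest GC bin 15.8% were higher and 38.6% lower (median -0.23). Under 13 processing settings 8 to 11 members of these clusters were higher in RAS/shDOT1L than in RAS and 0 lower, and leaving out 1 library at a time gave 9 to 10 higher.

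ZNF675 rose most among the members named by the level rule. Its RAS/shDOT1L libraries stood at 3.26, 4.77 and 6.12 CPM, above all 3 RAS libraries (0.536, 1.09 and 1.53 CPM) and close to Control (3.46, 5.23 and 4.57 CPM). The log2 change from RAS was 2.18 ± 0.44, 4.53-fold (edgeR adjusted p = 9.38e-05), and 1.78 with the GC offset. Against Control it was 0.10 ± 0.29 (edgeR adjusted p = 0.792). Both upstream CCAATCAG matches of ZNF675 lie within 150 bases of its RefSeq start.

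ZNF91, at chr19:23304991-23395471 on the minus strand, encodes the most fingers of all members (31) and is known to repress SVA retrotransposons. It was measured at 5.62, 6.79 and 8.19 CPM in Control, 9.06, 7.21 and 4.54 in RAS/shDOT1L, 1.91, 3.39 and 2.81 in RAS and 1.87, 2.47 and 2.76 in DOT1L OE. RAS and DOT1L OE were both below all Control libraries, and RAS/shDOT1L spanned the Control range. Its log2 change was -1.35 ± 0.28 in RAS against Control (edgeR adjusted p = 9.64e-05), 1.38 ± 0.32 in RAS/shDOT1L against RAS (edgeR adjusted p = 0.000468) and 0.02 ± 0.25 in RAS/shDOT1L against Control (edgeR adjusted p = 0.958). With the GC offset the first 2 were -0.73 and 0.99, both still called.

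ZNF254 rose from 1.55, 2.18 and 1.60 CPM in RAS to 6.32, 5.08 and 3.97 CPM in RAS/shDOT1L (log2 change 1.54, edgeR adjusted p = 0.000628). ZNF506 rose from 1.85, 2.24 and 1.91 CPM to 6.59, 5.64 and 6.56 CPM (log2 change 1.66, edgeR adjusted p = 5.58e-05), and there the RAS/shDOT1L libraries were above the Control libraries too (3.20, 3.83 and 4.32 CPM). ZNF430 (log2 change 1.68) likewise ended above Control (0.79 in RAS/shDOT1L against Control, edgeR adjusted p = 0.0388). ZNF253 (1.86 against RAS) did not differ from Control past the threshold. All 4 kept their call against RAS with the GC offset, at 1.14, 1.27, 1.30 and 1.47. Of the other members of these clusters, ZNF431 and ZNF486 were called without and not with the offset, and ZNF681 (2.5) and ZNF493 (2.67) were called in both, with means of 0.352 and 0.207 CPM in RAS.

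**Figure D5:**
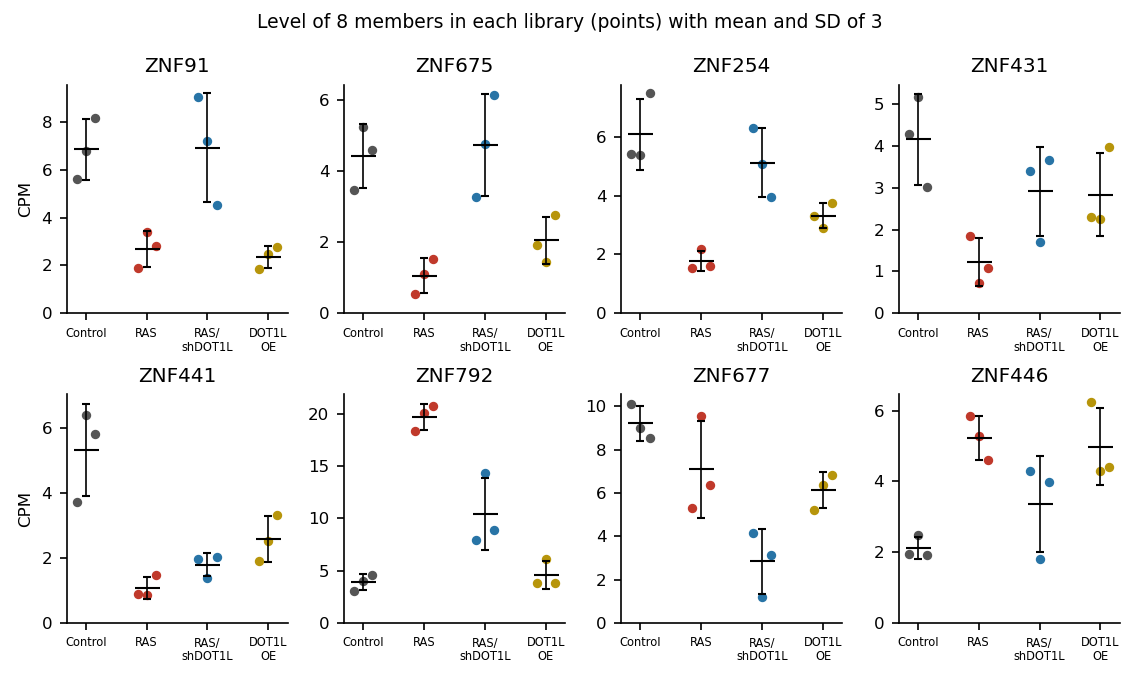
Level in CPM (vertical axis, from 0) of 8 members in every library of the 4 groups, with bars for the mean and SD of 3. ZNF91, ZNF675, ZNF254 and ZNF431 are low in RAS and higher in RAS/shDOT1L, ZNF441 stays low in RAS/shDOT1L, ZNF792 is at 19.7 CPM on average in RAS, ZNF677 is lowest in RAS/shDOT1L and ZNF446 is at 5.24 CPM in RAS and 4.98 CPM in DOT1L OE.

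Outside clusters 5 and 6, ZNF780B rose from 1.13, 2.6 and 0.894 CPM in RAS to 3.78, 3.32 and 4.42 in RAS/shDOT1L (log2 change 1.33) and lost its call with the offset (0.97, edgeR adjusted p = 0.0707), and without RAS replicate 1, RAS replicate 3 or RAS/shDOT1L replicate 3 (1.05 to 1.21). ZNF350, also called ZBRK1 and known as a partner of BRCA1, rose by 1.21 and kept its call (0.92). ZNF441 had fallen most with RAS among the members named by the level rule. It was at 1.96, 1.38 and 2.02 CPM in RAS/shDOT1L, a log2 change from RAS of 0.75 that missed the threshold (edgeR adjusted p = 0.287). Cluster 3 as a whole, whose promoter windows also hold CCAATCAG in most cases, had 0 members higher and 2 lower of 18 in RAS/shDOT1L against RAS, with a median of 0.48. Of the 15 members called higher that had a promoter window 8 held CCAATCAG, of the 27 called lower 1 did and of the 142 not called 31 did, against 45 of all 195. Since 10 of the 17 higher members lie in clusters 5 and 6, where 23 of 23 genes hold these letters, the letters and cluster membership cannot be told apart there.

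Of the members lower in RAS/shDOT1L than in RAS, 17 lay in cluster 16, which had 2 higher of 56 tested (median -0.34). Its lower members made up a share close to the 26.4% of all genes, as did the 16 lower with the GC offset to 23.8%. ZNF329, a cluster 16 member of 12 fingers, fell most, from 17.0, 14.8 and 18.4 CPM in RAS to 5.74, 5.77 and 4.04 CPM in RAS/shDOT1L. In Control it stood at 14.4, 14.2 and 15.1 CPM and in DOT1L OE at 20.2, 18.8 and 18.3 CPM, so that RAS/shDOT1L was the lowest group and DOT1L OE lay above Control, each without overlap. Its log2 change was -1.67 ± 0.20 against RAS (3.19-fold, edgeR adjusted p = 1.39e-08), -1.49 ± 0.19 against Control (edgeR adjusted p = 1.89e-07) and 0.39 ± 0.12 in DOT1L OE against Control (edgeR adjusted p = 0.00485). With the offset the fall from RAS was -1.81.

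ZNF677 of cluster 15, a gene silenced by methylation in lung cancers, was measured at 5.30, 9.57 and 6.38 CPM in RAS and 4.17, 1.19 and 3.15 CPM in RAS/shDOT1L (log2 change -1.30, edgeR adjusted p = 0.00177, and -1.65 with the offset). ZNF628 returned from 29.4, 34.5 and 25.9 CPM in RAS to 13.8, 17.3 and 12.7 CPM, which overlapped Control. ZNF584 (log2 change -0.99), ZNF440 (-1.04), ZNF135 (-1.07), ZNF814 (-1.02) and ZNF792 (-0.90) fell as well and kept their calls with the offset, though ZNF135 lost its call without RAS replicate 1 (-1.02), RAS replicate 3 (-0.94) or RAS/shDOT1L replicate 1 (-0.69). Of ZNF814, 9.04% of 50-base stretches occur in another chromosome 19 ZNF gene and 3 antisense genes overlap it. ZNF444 (-0.53), ZNF580 (-0.50), ZNF414 (-0.56) and ZNF579 (-0.39) lost their calls with the offset, and ZNF579 turned to 0.06.

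DOT1L OE against Control asks how the genes differ when DOT1L is raised without the oncogene. Of 218 members tested 24 were higher and 31 lower, 11% and 14.2%, against 29.9% of all 13660 genes in each direction. Over 1.5-fold, 9 members were called, 4.13% against 20.8% of all genes, and 5 without Control replicate 3. The median log2 change was -0.12, and with the GC offset 26 were higher and 29 lower with a median of -0.03, where 29.7% and 29.9% of all genes were higher and lower. The GC slope was weaker here, with a Spearman correlation of 0.25 without and 0.07 with the offset, and 49 of the 55 calls stayed. ZNF genes of other chromosomes had 66 higher and 25 lower of 222.

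ZNF91 fell most in DOT1L OE, 2.88-fold (log2 change -1.53 ± 0.24, edgeR adjusted p = 1.97e-06), and -1.30 with the offset. ZNF675 of the same cluster stood at 1.92, 1.45 and 2.76 CPM in DOT1L OE, below all Control libraries (log2 change -1.10, edgeR adjusted p = 0.0018), and ZNF254 at 3.31, 2.89 and 3.74 CPM (-0.88, edgeR adjusted p = 0.00145). These 3 members were thus lower than Control both with RAS and with DOT1L OE, in comparisons that share the Control libraries. The joined clusters 5 and 6 had 5 members lower and 1 higher of 26 (median -0.21), where 42.4% of the other genes in the lowest GC bin were lower and 18.8% higher, the remaining 2 lower ones being ZNF429 (-0.95) and ZNF708 (-0.84), neither called with the offset. ZNF724 was the higher one (1.16).

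ZNF600 (log2 change -1.07), ZNF441 (-1.03), ZNF766 (-0.98) and ZNF69 (-0.97), 4 members that had also fallen with RAS, were lower in DOT1L OE too and kept their calls with the offset. ZNF567 fell from 2.27, 4.63 and 4.02 CPM in Control to 1.49, 1.63 and 1.17 CPM (log2 change -1.34, edgeR adjusted p = 0.00105). ZNF575, of 64.9% GC, fell from 5.68, 4.58 and 4.47 CPM to 1.97, 2.85 and 1.82 CPM (-1.14, edgeR adjusted p = 0.000512) and was also lower than Control in RAS/shDOT1L (-1.46). It is 1 of 2 members of 50% GC and above that were lower in DOT1L OE.

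Of the members higher in DOT1L OE, ZNF446 went from 1.96, 2.48 and 1.91 CPM in Control to 6.24, 4.30 and 4.40 CPM (log2 change 1.23, edgeR adjusted p = 0.000217, and 1.13 with the offset). It was at 5.84, 5.27 and 4.60 CPM in RAS, so both groups lay above Control. ZNF304, known to bring TRIM28 to the INK4-ARF locus, rose from 8.62, 9.38 and 9.45 CPM to 15.1, 14.2 and 15.7 CPM (log2 change 0.72, edgeR adjusted p = 3.99e-05) and was at 6.89 to 9.95 CPM in the RAS and RAS/shDOT1L libraries. ZNF304, ZNF530 (0.82), ZNF587B (0.73) and ZNF551 (0.64, not called without DOT1L OE replicate 3) lie in cluster 16 and have 44.2% to 47.1% GC, and all 4 kept their call with the offset. ZNF784 (0.83), ZNF428 (0.83) and ZNF554 (0.89) rose as well and kept theirs. ZNF146, ZNF653 and ZNF266 lost their calls with the offset.

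RAS/shDOT1L against Control compares both changes at once with the empty-vector level. Of 213 members 13 were higher and 69 lower, 6.10% and 32.4%, where 27.9% of all 13519 genes were higher and 27.6% lower, and the median log2 change was -0.40 with 161 of 213 below zero. Over 1.5-fold, 27 members were called, 12.7% against 19.1% of all genes. With the GC offset 14 were higher and 57 lower (median -0.33), where 27.9% and 27.0% of all genes were higher and lower. The members lower than Control thus fell from 69 to 57 with the offset here and from 72 to 30 in RAS against Control.

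By the same rule of level and overlap, ZNF699 of cluster 2 fell most here, from 2.68, 4.74 and 3.92 CPM in Control to 1.17, 1.13 and 0.946 CPM (log2 change -1.79, edgeR adjusted p = 0.000537). ZNF677 (log2 change -1.69, edgeR adjusted p = 1.87e-05) and ZNF441 (-1.57, edgeR adjusted p = 0.000267) followed. ZNF792 (1.42), ZNF524 (1.10) and ZNF667 (0.80) were the largest rises, and ZNF667 was at 6.45, 4.64 and 5.17 CPM where Control had 2.63, 2.37 and 4.37. These 6 kept their calls with the offset, but ZNF667 lost its call without Control replicate 1 (0.68), Control replicate 2 (0.63) or RAS/shDOT1L replicate 1 (0.65). ZNF444, ZNF761, ZNF260, ZNF160 and ZNF569 lost theirs. ZNF160 is known as a repressor of TLR4.

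Of the other large clusters, cluster 15, between 51.57 and 53.58 Mb, holds 37 members of median 41.0% GC, 27 of them with a KRAB-type stretch. It had 26 lower and 0 higher in RAS against Control (median -0.89), 10 lower and 0 higher in DOT1L OE, 20 lower and 0 higher in RAS/shDOT1L against Control and 1 each way of 36 in RAS/shDOT1L against RAS. With the offset 10 were lower and 1 higher in RAS (median -0.45). Of the genes of like GC content that are no members (38.4% to 43.0%, 2 bins) 59.0% and 51.4% were lower in RAS against Control, and 24.3% and 25.6% with the offset, where their medians were -0.01 and 0.00. In DOT1L OE 36.3% and 33.2% of them were lower, more than in cluster 15. In RAS/shDOT1L against Control 37.8% and 34.5% were, less than in cluster 15, neither difference being tested. With the offset cluster 15 had 15 lower and 0 higher in RAS/shDOT1L against Control (median -0.59), where 25.9% and 27.2% of those genes were lower. In DOT1L OE it then had 9 lower and 1 higher, where 29.2% and 29.6% of those genes were lower. Cluster 3, between 11.48 and 12.64 Mb (median 42.5% GC), had 9 lower and 1 higher of 17 in RAS against Control (median -0.94), and 7 lower and 0 higher of 19 in RAS/shDOT1L against Control. Its lower members were close in share to the other genes between 40.7% and 43.0% GC, of which 51.4% and 34.5% were lower in these comparisons. Unlike in clusters 5 and 6, few members of clusters 3 and 15 were called between RAS/shDOT1L and RAS, though that difference between clusters was not tested.

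Cluster 9, between 36.18 and 37.82 Mb, had calls in RAS that depended on the GC offset. Of its 25 members (median 39.3% GC) 9 were lower and 1 higher in RAS, and with the offset 0 were called in either direction, where 59.0% of the other genes between 38.4% and 40.7% GC were lower without and 24.3% with the offset. Cluster 16, between 55.48 and 58.48 Mb with 57 members, had 16 higher and 5 lower in RAS against Control (median 0.04), 11 higher and 2 lower in DOT1L OE and 16 lower and 5 higher of 56 in RAS/shDOT1L against Control. Its higher members in the first and lower members in the last of these were close to the shares over all genes (31.9% and 27.6%), and its higher members in DOT1L OE were below it (29.9%). It holds the GC-rich members at its start, ZNF628, ZNF865 and ZNF524 among them. Cluster 2 (14 members) had 3 higher and 4 lower in RAS against Control, where 31.9% of all genes were higher and 32.0% lower.

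Members with and without a KRAB-type stretch were counted apart, and differed in GC content as well. Those without the stretch may include members with a KRAB domain of another form. Of 115 tested with the stretch 49 were lower and 5 higher in RAS against Control (median -0.68, median GC content 41.7%). Of 97 without it 23 were lower and 22 higher (median -0.28, 43.9%). Over all genes 32.0% were lower and 31.9% higher. Of the other genes between 40.7% and 43.0% GC 51.4% were lower and 11.9% higher. Between 43.0% and 45.5% GC 43.5% were lower and 16.5% higher. Within GC classes the medians lay close together, -1.06 with and -0.99 without the stretch under 38% GC, -0.89 and -0.73 between 38% and 42%, and -0.36 and -0.28 between 42% and 50%. Only 4 of the 30 members of 50% GC and above had the stretch. Of the 12 members with up to 5 fingers, whose median GC content was 62.2%, 11 were tested and 9 were higher in RAS (median 0.87, with 63.0% of other genes higher in the highest GC bin), and of the 48 with over 15 fingers 4 were higher and 19 lower (median -0.72). These 48 had a median of 41.8% GC, and 51.4% of other genes between 40.7% and 43.0% GC were lower. With the GC offset 7 of them were lower. Members with 11 to 15 fingers, of the same median GC content, had 33 lower of 89 tested.

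Level and sequence overlap moved with the counts to different extents. Of the 39 members at 10 CPM and above 20 were higher and 8 lower in RAS. Among all genes of that level 41.0% were higher and 35.3% lower. Of the 96 members between 3 and 10 CPM 6 were higher and 42 lower (43.8%), against 17.7% and 35.7% of all genes of that level. Of the 77 tested under 3 CPM 1 was higher and 22 lower (28.6%), against 14.3% and 17.7% of all genes of that level. With the GC offset 21.9% and 7.79% of the members in these last 2 classes were lower, against 27.6% and 14.5% of all genes. In RAS/shDOT1L against RAS the 39 members at 10 CPM and above had 1 higher and 17 lower, against 31.6% and 35.1% of all genes of that level. In RAS/shDOT1L against Control 17.9%, 45.8% and 28.2% of the members were lower, from the lowest class up. Among all genes of these levels 10.8%, 27.5% and 32.5% were lower. Members that overlap another annotated gene had a median log2 change of -0.53 in RAS against Control and those that overlap none -0.56, and the 15 members with over 10% shared stretches had 1 higher and 5 lower (median -0.44).

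The partners through which KRAB proteins act were listed apart from the members, and 24 of 25 were tested. In RAS against Control 12 were lower and 7 higher, in RAS/shDOT1L against RAS 6 lower and 7 higher, in DOT1L OE against Control 4 lower and 13 higher, and in RAS/shDOT1L against Control 6 lower and 3 higher. Of all genes tested 32.0% were lower and 31.9% higher in RAS against Control, and 26.4% and 26.3% in RAS/shDOT1L against RAS. In DOT1L OE against Control 29.9% went each way, and in RAS/shDOT1L against Control 27.6% were lower and 27.9% higher. Only the 12 lower in RAS and the 13 higher in DOT1L OE were well above these shares, neither difference being tested. With the GC offset the list's counts became 6 and 5, 7 and 3, 4 and 13, and 7 and 6. The shares of all genes were then 26.0% and 27.3%, 23.8% and 22.8%, 29.9% and 29.7%, and 27.0% and 27.9%. TRIM28, the co-repressor that KRAB domains bind, stood at 357 ± 2.91 (SD, n = 3) CPM in Control, 353 ± 11.5 in RAS/shDOT1L, 539 ± 7.35 in RAS and 580 ± 12.9 in DOT1L OE. Its rise with RAS (log2 change 0.59, edgeR adjusted p = 3.78e-15) was -0.01 with the GC offset, while its rise in DOT1L OE (0.70) was 0.58. SETDB1, averaging 14.9 CPM in Control, was at 18.4 with RAS, 17.0 in DOT1L OE and 13.1 in RAS/shDOT1L, and fell from RAS to RAS/shDOT1L (-0.48, edgeR adjusted p = 0.0145, a call lost without RAS replicate 1 or RAS/shDOT1L replicate 2).

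The de novo DNA methyltransferase DNMT3B, chosen after its values were seen, changed most on this list. It averaged 6.64 CPM in RAS/shDOT1L, 3.30 in Control, 3.23 in DOT1L OE and 0.652 in RAS, with log2 changes of -2.33 in RAS against Control (edgeR adjusted p = 7.91e-05) and 3.35 in RAS/shDOT1L against RAS (edgeR adjusted p = 1.12e-08). The HP1 genes differed from each other, with CBX5 higher in DOT1L OE (0.85), CBX1 lower in all 4 comparisons and CBX3 lower in RAS (-0.55, but 0.11 with the GC offset) and higher in RAS/shDOT1L against RAS (0.66). Of 18 C2H2 genes of chromosome 19 with other names (ZFP, ZSCAN, ZBTB and others) 11 were tested, and 5 were higher and 2 lower in RAS against Control, 1 higher and 4 lower in RAS/shDOT1L against RAS, and 2 higher and 2 lower in each of the other comparisons. The 2 lower in RAS, ZFP28 (-1.20) and ZFP30 (-1.15), have 43.1% and 37.0% GC, and MZF1, the largest rise (1.19), has 66.4%. With the GC offset 3 were higher and 1 lower in RAS. ZFP30 lost its call (-0.55, edgeR adjusted p = 0.0677), while ZFP28 (-0.86) and MZF1 (0.56) kept theirs. In RAS/shDOT1L against RAS 0 were then higher and 2 lower. Without the offset 31.9% of all genes were higher and 32.0% lower in RAS against Control, and 26.3% and 26.4% in RAS/shDOT1L against RAS.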

How the data were processed

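Poly(A) RNA libraries were made from IMR90 total RNA with the NEBNext Ultra 2 kit and sequenced as paired ends on a NovaSeq. Per the labels, the authors aligned reads to GRCh38 with STAR 2.6.1 and deposited whole-number read counts per Ensembl gene for each library, with no normalization. Each sample was grouped by its GEO title. Gene IDs were given symbols, positions and transcripts from GENCODE 44 (45038 of 48162 IDs matched), and GC content, length and fingers were taken from each gene's canonical transcript, since no protein table was used here.

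Counts were tested in edgeR 4.0.16 (R 4.3.3) by the quasi-likelihood F test with filterByExpr, TMM factors and Benjamini-Hochberg adjustment over all genes tested, each comparison on its own 6 libraries, and by glmTreat at 1.5-fold. The fitted log2 change used edgeR's default prior count. A prior count of 2 entered only the log2 CPM behind the GC offset and behind the check of replicate pairing. The GC offset was each library's median deviation from the gene mean in 20 bins of transcript GC content. DESeq2 1.42.0 and limma 3.58.1 (voom) served as alternatives, and Python 3.11.15 with matplotlib 3.10.9 for tables and figures.

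Members and lists were chosen with earlier results of these data known. Named genes were, per comparison, the 8 largest rises and 8 largest falls (3 and 3 in RAS/shDOT1L against Control) among members with adjusted p under 0.05, at least 3 CPM in the higher group and groups that did not overlap. Added to these were the 5 highest per length, the 2 highest and 2 lowest in GC content, up to 5 members per comparison whose call was lost and up to 5 whose sign turned with the GC offset, and DOT1L, HRAS, TRIM28 and SETDB1. Other genes named in the text were chosen after their values were seen, as were the joining of clusters 5 and 6, the promoter letters, the 4 GC classes and the Asn-Val-Met form of the KRAB-type stretch, without which 102 members had the stretch. No library was a copy of another, since chi-square divided by its degrees of freedom was 4.33 to 7.87 between replicates. The strand setting of the counting is not given in the sources used here.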

Additional observations from a re-analysis of the deposited data

How the results depend on the processing

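The GC offset was the choice that moved most results. In RAS against Control the GC offset, the same offset without ZNF genes in the trend, the GC and length offset, and the replicate block with GC offset gave 30, 30, 31 and 26 lower members, medians of -0.217, -0.218, -0.207 and -0.252 and 9, 9, 11 and 9 members past 1.5-fold. In RAS/shDOT1L against RAS, in the same order, 10, 10, 11 and 9 were higher, with medians of -0.173, -0.168, -0.128 and -0.169 and 7, 7, 5 and 5 past 1.5-fold. The medians were -0.0324, -0.0382, -0.0742 and -0.026 in DOT1L OE against Control and -0.331, -0.336, -0.231 and -0.315 in RAS/shDOT1L against Control, where the GC and length offset left 14 past 1.5-fold. With library sizes alone the 4 medians were -0.729, 0.0556, -0.0437 and -0.519. In RAS/shDOT1L against Control limma-voom gave a median of -0.437, and in DOT1L OE against Control 1 fit over all 4 groups left 2 members past 1.5-fold. Signs turned with the 4 offsets, in the order above, in RAS against Control for ZNF579 (-0.0938, -0.0885, -0.134, -0.0903), ZNF580 (-0.283, -0.277, -0.34, -0.282), ZNF146 (0.223, 0.224, 0.229, 0.219), ZNF784 (-0.0879, -0.0844, -0.142, -0.0904), ZNF414 (-0.247, -0.245, -0.286, -0.243) and TRIM28 (-0.0106, -0.00772, -0.00286, -0.0107), and in RAS/shDOT1L against RAS for ZNF579 (0.0648, 0.0675, 0.0968, 0.0651). The offset's own construction, which centres every GC bin, shifts them. No other named gene turned.

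Leaving out 1 library at a time gave medians of -0.556 to -0.471 in RAS against Control, -0.0864 to 0.0206 in RAS/shDOT1L against RAS, -0.11 to -0.0716 in DOT1L OE against Control and -0.464 to -0.394 in RAS/shDOT1L against Control. In RAS/shDOT1L against RAS 11 to 16 members were then higher and 8 to 14 past 1.5-fold, and in DOT1L OE against Control 5 to 9 past 1.5-fold. No sign of a named gene turned, and 33 calls of named genes were lost over all such fits.

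Replicate numbers did not pair the libraries. Same-numbered libraries deviated from their group means with correlations of -0.019 to 0.0273, and with the replicate block alone 67 members were lower and 25 higher in RAS against Control, 16 higher and 29 lower in RAS/shDOT1L against RAS, 22 higher and 30 lower in DOT1L OE against Control, and 12 higher and 65 lower in RAS/shDOT1L against Control. Among named genes only ZNF266 in DOT1L OE against Control lost its call under the block alone. At a median of 3.72 CPM, members under 3 CPM could be called only for large changes.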

Other observations

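The 29 chromosome 19 ZNF genes under the count rule were not tested. At least 10 counts in 1 library were reached by ZNF492, with at most 38 counts, ZNF223 (15), ZNF66 (14), ZNF224, ZNF625 and ZNF730 (12 each) and ZNF878 (11). ZNF98, ZNF99, ZNF676, ZNF723, ZNF728 and ZNF729, which lie between clusters 5 and 6, were at 0 in all 12 libraries.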
